A study of Mus musculus with 6 samples.

Results

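The 9 genes described here are the core of heme metabolism in the livers of Nogo knockout mice and their wild-type littermates. They are Alas1, Alas2, Alad, Uros, Urod, Cpox, Ppox and Fech, which encode enzymes of heme synthesis, and Hmox1, which encodes an enzyme of heme breakdown. They were chosen by name from a table of 54232 genes, each matched 1 row, and all 9 passed the filter on low counts that left 13304 genes for testing. RNA was sequenced from 6 liver samples, 3 of the genotype Nogo-/- and 3 of littermates labelled WT, all from mice aged 8 weeks that were kept on normal chow. Nogo is the product of Rtn4, a membrane-shaping protein of the endoplasmic reticulum, and the study's title names insulin signalling as its question. The labels give neither the sex of the mice nor the part of the gene that was removed, and nothing more about how the knockout line was made. The numbers in the labels name the libraries here: wild type 2, 4 and 11, and knockout 1, 2 and 4.

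Heme is a porphyrin ring that holds iron and serves as the working group of cytochromes, catalase and hemoglobin. Its synthesis starts in mitochondria, where 5-aminolevulinate synthase joins glycine to succinyl-CoA, continues through a chain of porphyrin precursors in the cytosol, and returns to mitochondria, where the ring is oxidised and ferrochelatase inserts the iron. In hepatocytes the housekeeping synthase Alas1 sets the pace and is repressed by heme itself, while Alas2 is known as the synthase of red cell precursors. Heme oxygenase opens the ring and releases iron, carbon monoxide and biliverdin, which is then reduced to bilirubin, conjugated and sent into bile.

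In knockout liver Alad rose and Alas2, Cpox and Fech fell, so that 4 of the 9 genes passed the test, 1 upwards and 3 downwards (edgeR's quasi-likelihood test, Benjamini-Hochberg adjusted p under 0.05). Of all tested genes 17.0% were called in either direction, 8.76% of all being higher and 8.29% lower in knockout. The median log2 fold change of the 9 genes was −0.31, which is the value of Hmox1, beside 0.01 over all tested genes. For the 8 genes of synthesis it was −0.16, with 4 above and 4 below 0. Levels of the 3 knockout libraries did not overlap those of the 3 wild-type libraries for 5 of the 9 genes, the called ones and Uros, where 38.9% of all tested genes had no overlap. The called genes of heme synthesis thus moved in different directions, and each of the 4 calls was lost in at least 1 fit that left out a library, as given gene by gene.

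The libraries held 17568223 to 20902369 counts. Levels are given in CPM, the count of a gene scaled to the library's total by the TMM method, on which 3 counts are worth 0.139 to 0.199. The lowest count of any of the 9 genes was 148, so depth did not limit detection. Rtn4 was at 40.5 to 56.0 CPM in wild type and 4.63 to 8.22 CPM in knockout, a log2 fold change of −3.08 (SE 0.26, edgeR adjusted p = 0.00101), so each library carried the Rtn4 level of its label. Mitochondrially encoded genes took 6.17% to 6.90% of the counts in wild type but 28.6%, 19.7% and 11.8% in knockout 1, 2 and 4. Of 10 hepatocyte markers, all were detected and 1 was called, Cps1, which was lower (−1.52), where 17.0% of all tested genes were called. The number of genes called over the whole table moved with single libraries, and was 804, 979 and 4046 without knockout 1, 2 and 4 and 827 and 630 without wild type 2 and 4, against 2268 with all 6.

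RefSeq gives the sequence around the start site of 7 of the 9 genes, in 10 windows of 250 bases before to 50 bases after a start (build GRCm38.p6, whose coordinates are those of mm10). Entries for Fech and Hmox1 were not among them. The upstream stretches of the called genes are shown because the data show Alad moving against Alas2 and Cpox. Only bases outside annotated exons are printed, in lower case, with matches to the searched motifs in capitals. For Alad this is chr4:62519919-62520159 on the minus strand, for Alas2 chrX:150547167-150547374 on the plus strand and for Cpox chr16:58669958-58670207 on the plus strand, each 5′ to 3′.
Alad: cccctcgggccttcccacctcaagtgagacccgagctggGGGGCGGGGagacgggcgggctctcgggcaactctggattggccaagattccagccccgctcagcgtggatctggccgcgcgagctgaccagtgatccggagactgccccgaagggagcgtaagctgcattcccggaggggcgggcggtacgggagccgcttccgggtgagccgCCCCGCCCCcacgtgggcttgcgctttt
Alas2: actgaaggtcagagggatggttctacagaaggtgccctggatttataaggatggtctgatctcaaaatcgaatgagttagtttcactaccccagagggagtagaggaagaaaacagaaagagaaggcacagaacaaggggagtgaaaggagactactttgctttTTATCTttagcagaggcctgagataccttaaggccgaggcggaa
Cpox: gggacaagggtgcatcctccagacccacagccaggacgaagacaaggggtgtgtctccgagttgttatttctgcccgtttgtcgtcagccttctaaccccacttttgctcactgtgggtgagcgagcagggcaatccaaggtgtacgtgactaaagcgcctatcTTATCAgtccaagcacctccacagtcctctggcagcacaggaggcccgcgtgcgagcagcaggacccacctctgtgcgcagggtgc
The motifs searched, on both strands, were AGATAA and TGATAA, short forms of the site of GATA factors, the palindrome of the factor NRF1, TGACNNNGC, the core of the antioxidant response element, and GGGGCGGGG, a GC box. No match of 1 motif overlapped a match of another in the 3 sequences shown. The capitals in Alas2 (TTATCT) and Cpox (TTATCA) are GATA motifs read on the opposite strand, each starting 86 bases before the RefSeq start. The capitals in Alad are GC boxes 211 and 37 bases before the downstream of its 2 RefSeq starts, whose window is the one shown. The box at 211 lies 57 bases before the upstream start. A GATA motif stood in 3 of the 10 windows of these genes and in 18.6% of all 32851 windows. The third was a window of Uros, whose change was upward and not called (0.52). Cpox held a second GATA match 4 bases after its start, outside the stretch shown. A GC box stood in 4 of the 10, in Alad, Ppox and Urod, and in 11.4% of all. Ppox and Urod were not called. The windows of Alad overlap, and 1 of its boxes is the same site in both, so the boxes are 4 sites in 3 genes. The NRF1 palindrome was found in both windows of Alas1, which overlap and hold 1 and the same site, and in 0.971% of all windows, and the antioxidant core was in none of the 10 and in 12.4% of all. These are matches of letters in the reference sequence, and no binding was measured.

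The first enzyme of the pathway is encoded by Alas1 and Alas2. Alas1 (ENSMUSG00000032786), on chromosome 9 from 106233455 to 106248654, minus strand (all gene positions are on mm10), is the form that all tissues use. Its level was 352, 969 and 335 CPM in wild type 2, 4 and 11 and 259, 167 and 845 CPM in knockout 1, 2 and 4. The library numbered 4 was the highest of its genotype in both, and the groups overlapped widely. The log2 fold change of −0.38 (SE 0.57, adjusted p = 0.669) had a 95% interval from −1.64 to 0.88, which leaves room for a large change either way. Without wild type 4 it was 0.29 (adjusted p = 0.777), and without knockout 4 it was −1.39 and passed the test (adjusted p = 0.0449). The spread of Alas1 within a genotype, a coefficient of variation of 65.4% in wild type and 86.8% in knockout, was the largest among the 9 genes. The labels do not tie mice of the same number to each other.

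**Figure D1:**
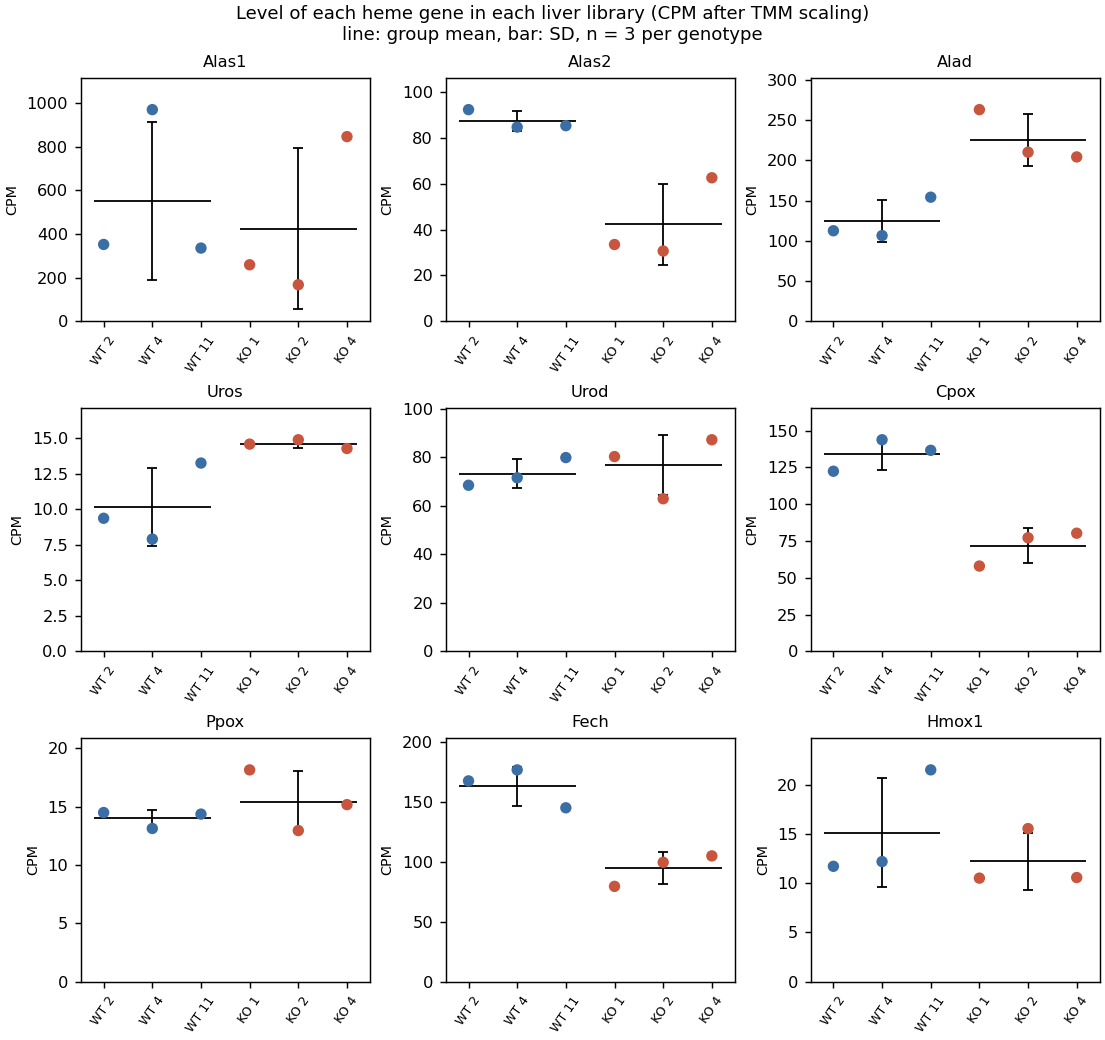
Level of each of the 9 heme genes (vertical axis, CPM after TMM scaling, starting at 0) in each of the 6 libraries (horizontal axis, WT wild type in blue, KO knockout in red), with the mean as a line and the SD as a bar (n = 3). Alas1 is high in wild type 4 (969 CPM) and knockout 4 (845 CPM), while Alad, Alas2, Cpox, Fech and Uros show no overlap between genotypes.

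Alas2 (ENSMUSG00000025270), on chromosome X from 150547375 to 150570638, plus strand, had a level of 92.4, 84.7 and 85.4 CPM in wild type 2, 4 and 11. In knockout 1, 2 and 4 it was 33.5, 30.7 and 62.6 CPM. All 3 knockout libraries lay below all wild-type libraries, and knockout 4, with the smallest mitochondrial share of the knockout libraries, lay nearest to them. On average the level was 87.5 ± 4.24 CPM in wild type and 42.3 ± 17.7 in knockout (SD, n = 3 each), a 2.07-fold fall (log2 fold change −1.05, SE 0.26, edgeR adjusted p = 0.0234). The call was lost when wild type 2, 4 or 11 or knockout 1 or 2 was left out, with adjusted p-values of 0.0671, 0.0654, 0.0517, 0.0904 and 0.0788. Without both knockout 1 and knockout 2 the change was −0.48.

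Because Alas2 is the enzyme of red cell precursors, erythroid markers were read beside it. The 4 hemoglobin genes summed to 208, 253 and 419 CPM in wild type 2, 4 and 11 and to 802, 331 and 394 CPM in knockout 1, 2 and 4, so the ranges overlapped and the highest sum was in knockout 1, where Alas2 was low. Hba-a2, an alpha-globin gene, was the only erythroid marker called, and it rose (1.56, SE 0.37, adjusted p = 0.0195). It missed the threshold without wild type 2 or 4 or knockout 1 (adjusted p = 0.0634, 0.0746 and 0.0568). Of its 50-base words 89.3% are shared with Hba-a1, so reads could have been assigned to either. Of 12 erythroid markers found in the table, 8 could be tested, 1 rose and 0 fell (2 higher and 0 lower at an unadjusted p under 0.05, and 1 higher and 0 lower by DESeq2). Of the 8 tested, 7 had a change above 0 and 1 below, with a median log2 fold change of 0.61. Over all tested genes 17.0% were called in either direction. The 8 markers other than hemoglobin summed to 19.9 to 51.7 CPM in wild type and 21.3 to 31.0 CPM in knockout, most of it the transferrin receptor Tfrc, which liver cells also express. Defining genes of red cell precursors were near 0 in most libraries. The anion exchanger Slc4a1 was at 0.0950 to 2.14 CPM in wild type and 0.430 to 8.14 CPM in knockout, and the factor Gata1 had 0 counts in 5 of the 6 libraries. In whole liver RNA, fewer cells of a type and less RNA per cell cannot be told apart, for Alas2 or any other gene here. Alas2 overlaps Apex2 on the opposite strand over 311 exonic bases, and strandedness of the counting is not given. Apex2 held 834 counts over the 6 libraries and Alas2 7490, and the log2 fold change of Apex2 was −0.04 (adjusted p = 0.918). The part of reads from Apex2 in the level of Alas2 was not tested.

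**Figure D2:**
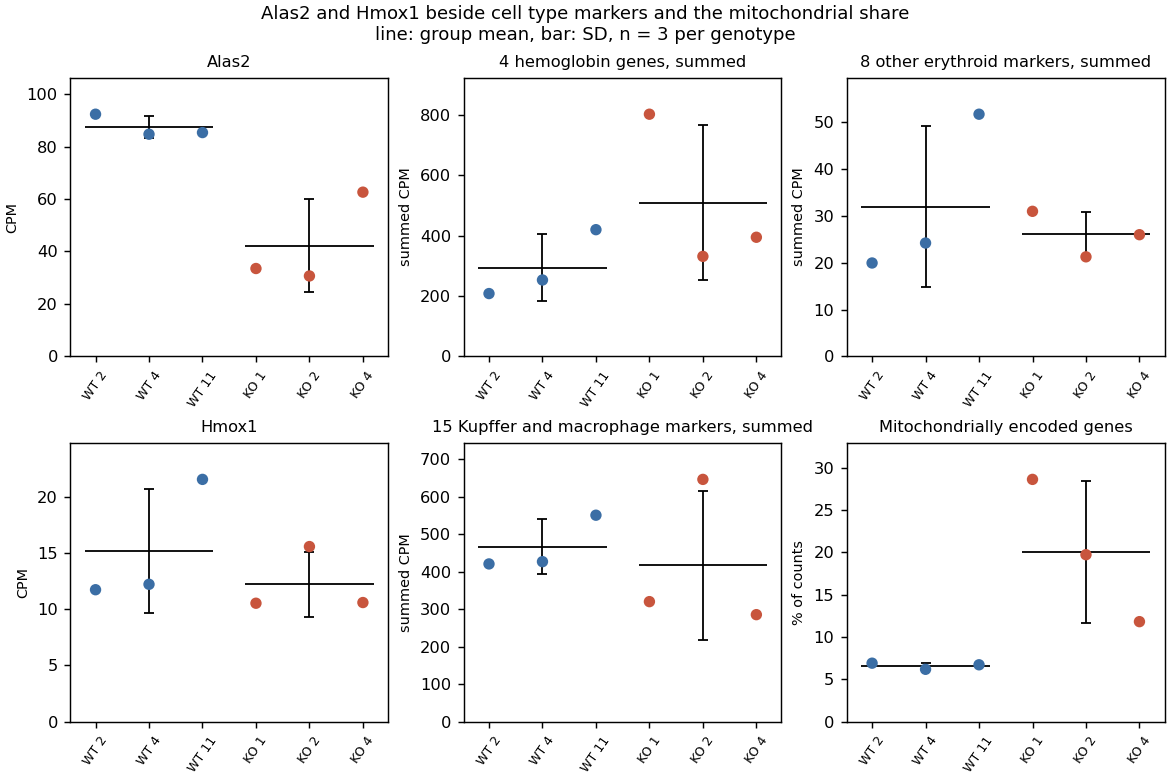
Alas2 and Hmox1 (CPM) in each library beside the summed CPM of hemoglobin genes, other erythroid markers and Kupffer and macrophage markers and the percentage of counts from mitochondrially encoded genes. Lines are means and bars SD (n = 3), with wild type in blue and knockout in red. Alas2 does not overlap between genotypes (84.7 to 92.4 CPM against 30.7 to 62.6), the hemoglobin sums do, and Hmox1 is highest in wild type 11 and knockout 2, the libraries with the most macrophage marker RNA.

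The cytosolic enzymes are described here are encoded by Alad, Uros and Urod. Alad (ENSMUSG00000028393), on chromosome 4 from 62509169 to 62519918, minus strand, encodes the enzyme that condenses aminolevulinate to porphobilinogen and is known as a target of lead poisoning. Its level was 113, 107 and 154 CPM in wild type 2, 4 and 11 and 263, 210.2 and 204 CPM in knockout 1, 2 and 4. Every knockout library exceeded every wild-type library. Mean levels of 124 ± 26.0 CPM in wild type and 226 ± 32.4 in knockout (SD, n = 3 each) stood beside a fitted 1.81-fold rise (log2 fold change 0.86, SE 0.20, edgeR adjusted p = 0.0201). None of the 50-base words of its transcripts is shared with another gene, and no annotated gene overlaps it. Alad missed the threshold when wild type 2 or 4 or knockout 1 was left out (adjusted p = 0.0950, 0.107 and 0.0692), with changes of 0.78, 0.75 and 0.73.

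Uros (ENSMUSG00000030979), on chromosome 7 from 133686243 to 133710072, minus strand, encodes the synthase that closes the porphyrin ring. It was at 9.36, 7.89 and 13.2 CPM in wild type 2, 4 and 11 and at 14.6, 14.9 and 14.3 CPM in knockout 1, 2 and 4. The knockout libraries all lay above the wild-type libraries, wild type 11 being close to them. The log2 fold change of 0.52 (SE 0.22, 95% interval 0.03 to 1.0) did not pass (adjusted p = 0.123), and it passed without wild type 11 (0.74, adjusted p = 0.0469). The gene overlaps Bccip on the opposite strand, with no exonic base in common. Urod (ENSMUSG00000028684), on chromosome 4 from 116989965 to 116994413, minus strand, encodes the decarboxylase that follows. It was at 68.4, 71.5 and 79.8 CPM in wild type and 80.3, 62.9 and 87.2 CPM in knockout. Its groups overlapped, with a log2 fold change of 0.07 (SE 0.18, adjusted p = 0.824) and a 95% interval from −0.33 to 0.47.

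The mitochondrial enzymes are encoded by Cpox, Ppox and Fech. Cpox (ENSMUSG00000022742), on chromosome 16 from 58670292 to 58717636, plus strand, encodes coproporphyrinogen oxidase of the intermembrane space. Its level was 122, 144 and 137 CPM in wild type 2, 4 and 11 and 58.0, 77.2 and 80.3 CPM in knockout 1, 2 and 4. The groups were far apart, with the highest knockout library well below the lowest wild type. Wild type averaged 134 ± 10.9 CPM and knockout 71.8 ± 12.1 (SD, n = 3 each), a 1.87-fold fall (log2 fold change −0.90, SE 0.19, edgeR adjusted p = 0.0124). Of the 4 called genes it held its call most often when a library was left out, in 5 of 6 fits, the exception being the fit without wild type 4 (adjusted p = 0.0613).

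Fech (ENSMUSG00000024588) encodes ferrochelatase, the last enzyme, which inserts iron. It was at 168, 177 and 145 CPM in wild type 2, 4 and 11 and at 79.6, 99.7 and 105 CPM in knockout 1, 2 and 4. Again no knockout library reached the wild-type range. Averages of 163 ± 16.3 CPM in wild type and 94.8 ± 13.4 in knockout (SD, n = 3 each) stood beside a fitted 1.72-fold fall (log2 fold change −0.79, SE 0.18, edgeR adjusted p = 0.0189). Fech missed the threshold in the fits that left out wild type 2 or 4 or knockout 1 or 2 (adjusted p = 0.0746, 0.0886, 0.0664 and 0.0508). Ppox (ENSMUSG00000062729), on chromosome 1 from 171275990 to 171281186, minus strand, encodes the oxidase that acts between these enzymes. It was at 14.5, 13.1 and 14.4 CPM in wild type and 18.1, 12.9 and 15.2 CPM in knockout. Its values overlapped, with a log2 fold change of 0.14 (SE 0.19, adjusted p = 0.636) and a 95% interval from −0.28 to 0.56. Ppox shares 17.5% of its exonic bases with B4galt3 on the opposite strand, and B4galt3 fell (−0.96, adjusted p = 0.0359). Since strandedness is not given, part of the reads counted for Ppox could come from B4galt3, and the level of Ppox is uncertain to that extent.

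**Figure D3:**
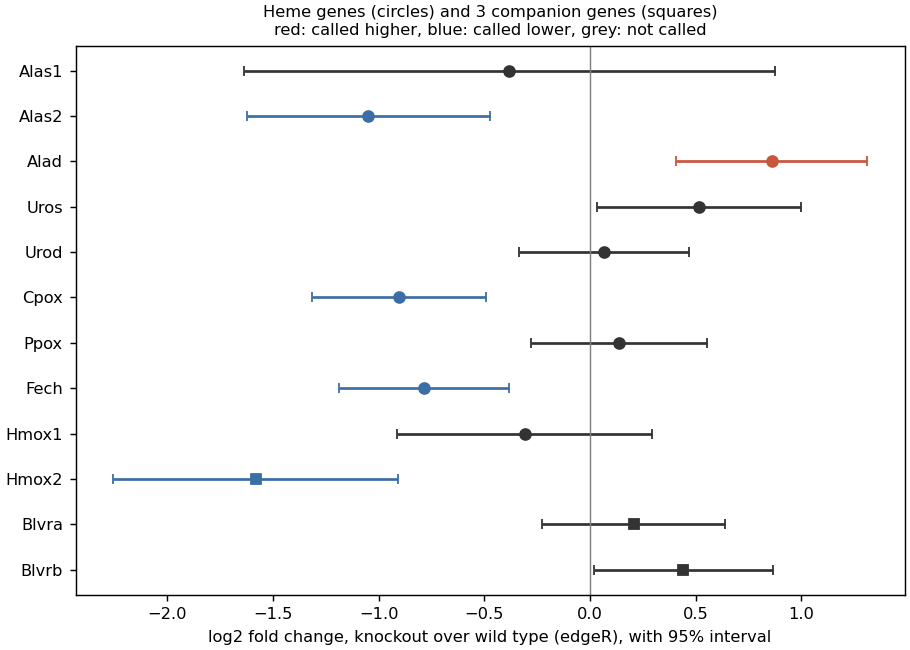
Log2 fold change of knockout over wild type (horizontal axis) with its 95% interval for the 9 heme genes (circles) and Hmox2, Blvra and Blvrb (squares), fitted with edgeR over 6 libraries. Alad lies above 0 at 0.86, Alas2, Cpox and Fech lie below 0 at −1.05, −0.90 and −0.79, and the interval of Alas1 is the widest.

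Ratios of counts within a library do not depend on how libraries are scaled, and were taken for Alad, Fech and Cpox after their values were seen, so their separation restates the calls. Alad held 0.671, 0.602 and 1.06 counts for each count of Fech in wild type 2, 4 and 11. In knockout 1, 2 and 4 it held 3.31, 2.11 and 1.94. The ratio of Alad to Cpox likewise went from 0.919, 0.741 and 1.13 to 4.54, 2.72 and 2.54. Both ratios were highest in knockout 1. For each count of Ppox, a late gene that was not called, the wild-type libraries had 7.77, 8.12 and 10.8 of Alad and the knockout libraries 14.5, 16.2 and 13.5, which is a smaller separation and highest in knockout 2. The ratio of Fech to Cpox overlapped between genotypes, at 1.06 to 1.37 in wild type and 1.29 to 1.37 in knockout.

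Levels of different genes were compared per kilobase of annotated exon. In wild type Alas1 (89.4 ± 58.5 CPM per kb) and Alad (66.5 ± 13.9) came first, and they did not differ beyond their spread. Alas2 (36.4 ± 1.76), Urod (28.3 ± 2.28), Cpox (20.2 ± 1.63), Fech (11.8 ± 1.18) and Hmox1 (8.66 ± 3.16) followed in that order, of which Fech and Hmox1 overlapped. Ppox (3.10 ± 0.17) and Uros (2.84 ± 0.77) were lowest and overlapped each other. In knockout Alad led at 121 ± 17.3 CPM per kb, and Alas1 (68.6 ± 59.6) overlapped both Alad, through knockout 4, and Urod. Urod (29.6 ± 4.83) had a higher mean than Alas2 (17.6 ± 7.36), whose highest library, knockout 4 with 26.1, exceeded the lowest of Urod, 24.3. Cpox (10.8 ± 1.82), Hmox1 (6.98 ± 1.65) and Fech (6.85 ± 0.97) followed, Hmox1 overlapping both of the others. Uros (4.07 ± 0.0859) and Ppox (3.41 ± 0.578) were again lowest and overlapped. The exon length of each gene covers every annotated isoform, 13.8 kb for Fech, so a level per kb is low for a gene whose common transcript is shorter. The order of all 9 genes is uncertain to that extent.

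**Figure D4:**
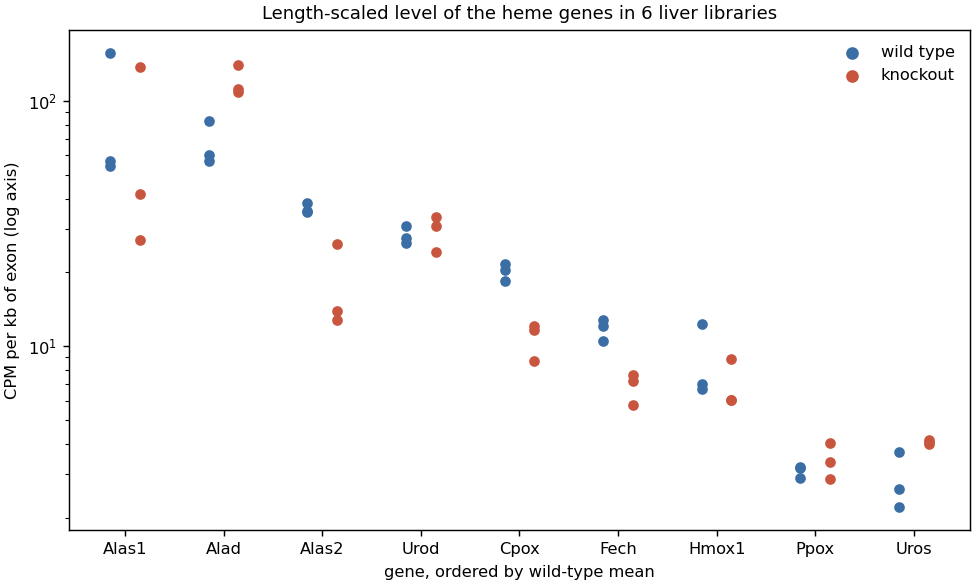
Level of each heme gene per kb of annotated exon (vertical log axis, CPM per kb) in wild type (blue) and knockout (red), 1 point per library, with genes ordered by the wild-type mean. Alas1 and Alad are at the top and Ppox and Uros at the bottom, and Alad is higher and Alas2, Cpox and Fech lower in the knockout libraries.

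Heme breakdown was read through Hmox1 (ENSMUSG00000005413), the inducible heme oxygenase, on chromosome 8 from 75093621 to 75100589, plus strand. Its level was 11.7, 12.2 and 21.6 CPM in wild type 2, 4 and 11 and 10.5, 15.6 and 10.6 CPM in knockout 1, 2 and 4. The groups overlapped, and wild type 11 stood above the rest. The log2 fold change was −0.31 (SE 0.27, adjusted p = 0.454) with a 95% interval from −0.91 to 0.29. Without wild type 11 it was 0.02. Kupffer cells, the macrophages of liver, carry much of its Hmox1, and 15 Kupffer and macrophage markers summed to 420.4, 426 and 550.4 CPM in wild type 2, 4 and 11 and to 320, 646 and 285 CPM in knockout 1, 2 and 4. Wild type 11 and knockout 2 were the highest of their genotype in both. All 15 were tested, none was at 0, and 1 was called, where 17.0% of all tested genes were called. That was the folate receptor Folr2, which fell (−3.46, SE 0.58), and 52.6% of its words also occur in Gm10602. Of the 15, 0 rose (0 at an unadjusted p under 0.05, and 0 by DESeq2). The part of macrophage content in the values of Hmox1 was not tested.

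The constitutive oxygenase and the steps after it were taken from a list of 30 accessory genes of heme supply, transport and disposal. Of these, all were tested, 6 fell and 0 rose (3 were higher at an unadjusted p under 0.05, and DESeq2 called 0 higher). That is 20.0% lower, beside 8.29% of all genes lower and 17.0% called in either direction, and the median of the list was 0.03 against 0.01. Hmox2, the constitutive heme oxygenase, fell from 32.7 ± 1.47 to 10.9 ± 5.80 CPM (−1.58, SE 0.31, adjusted p = 0.0107) and passed in the 6 fits that left out 1 library. Without knockout 1 and 2 together its change was −0.89 (adjusted p = 0.118), and with the mitochondrial share as a further term −0.69 (adjusted p = 0.595). Of its words 41.9% are shared with Cdip1 and Ppp4r2, so its level is uncertain. Ugt1a1, which conjugates bilirubin, was at 76.9, 84.4 and 69.6 CPM in wild type and 2.91, 2.79 and 24.5 CPM in knockout (−2.93, SE 0.68, adjusted p = 0.0193). It missed the threshold without knockout 1 (adjusted p = 0.0592) or knockout 2 (0.0538). Here 80.2% of the words are shared with other Ugt1a genes, which carry the same last exons. The biliverdin reductases did not pass, with 0.21 for Blvra (adjusted p = 0.491) and 0.44 for Blvrb (adjusted p = 0.131).

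Among genes that serve the mitochondrial steps, Abcb10, a transporter of the inner membrane that supports early heme synthesis, was at 26.9, 32.9 and 26.9 CPM in wild type and 10.99, 11.1 and 13.4 CPM in knockout, with no overlap (−1.29, SE 0.18, adjusted p = 0.00470). Clpx, the mitochondrial unfoldase that helps to activate aminolevulinate synthase and to degrade it, fell from 60.04 ± 12.9 to 29.6 ± 4.92 CPM (−1.02, SE 0.21, adjusted p = 0.0122). Lonp1, a protease of the matrix, and Glrx5, a factor of iron-sulfur cluster assembly, complete the 6 and were named outside the rule (−0.83 and −0.88).

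Among 17 regulators of Alas1 and Hmox1, all tested, 2 passed upwards and 1 downwards, 17.6% beside the 17.0% of all genes. Without wild type 4 edgeR called 0 of them in either direction (2 higher and 1 lower before adjustment, and the other tools were not fitted to those libraries). Nr1i2, the xenobiotic receptor PXR that can induce Alas1, rose from 82.7 ± 10.2 to 126 ± 19.2 CPM (0.60, SE 0.19, adjusted p = 0.0485). Mafg, a small Maf partner of the factors that act on Hmox1, rose from 59.0 ± 5.95 to 93.1 ± 13.6 CPM (0.66, SE 0.18, adjusted p = 0.0335). The co-repressor Ncor1 fell narrowly (−0.61, adjusted p = 0.0497). Mafg passed in 8, Nr1i2 in 6 and Ncor1 in 6 of the 16 alternatives, and each missed the threshold without wild type 2, wild type 4, knockout 1 or knockout 2. Nr1i2 also missed it without wild type 11 (adjusted p = 0.0562), and Ncor1 with limma-voom (adjusted p = 0.0515).

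Proteins that use heme were read from a list of 27 liver hemoproteins and their reductase. Of these 6 fell and 0 rose (0 were higher at an unadjusted p under 0.05, and DESeq2 called 0 higher). That is 22.2% lower, beside 8.29% of all genes lower and 17.0% called in either direction, and the median was −0.38 beside 0.01. Cyp2c29, a cytochrome P450, was at 1132, 1153 and 1323 CPM in wild type and 135, 187 and 444 CPM in knockout 1, 2 and 4 (−2.24, SE 0.38, adjusted p = 0.00758). Knockout 4 again lay nearest to wild type. Suox, sulfite oxidase (−0.96), Cyp3a13 (−0.99) and Sdhd, a heme-binding subunit of succinate dehydrogenase (−1.10), fell as well, the last of them missing the threshold without wild type 4, knockout 1 or knockout 2 (adjusted p = 0.0636, 0.0548 and 0.0630). Catalase, Cat, did not pass (−0.33, adjusted p = 0.245).

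To show which genes followed the 2 control points most closely over the 6 libraries, Pearson's r of log2 CPM was taken as a description. It covered 6607 tested genes with a mean of at least 10 CPM, and genes with clone or pseudogene names were left out. Nearest to Alas1 were Eef1e1 (0.997), Apcs (0.975), Keg1 (0.971), Apoa4 (0.970) and Nup88 (0.958). Their levels were likewise highest in wild type 4 and knockout 4, as with Apcs at 45.1, 62.3 and 43.4 CPM in wild type 2, 4 and 11 and 41.3, 33.6 and 71.3 CPM in knockout 1, 2 and 4. Nearest to Hmox1 were Stx4a (0.981), Ormdl3 (0.971), Proz (0.958), Tspan14 (0.948) and Iqsec1 (0.947), all highest in wild type 11. The points share the same 6 libraries and their scaling.

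The calls on the 9 genes were followed over 16 alternatives. Alad stayed above 0, and Alas2, Cpox and Fech below 0, in all 16, and passed the test in 11, 9, 12 and 9 of them. Since the genotypes do not overlap for these genes, the kept sign in the fits that leave out libraries is nearly built in. In an edgeR fit with each library's mitochondrial share as a further term, 0 of the 9 genes were called and 0 had an unadjusted p under 0.05 (DESeq2 and limma-voom were not fitted that way). The changes were 0.55 for Alad, −0.39 for Alas2, −0.53 for Cpox and −0.47 for Fech. That fit called 0 of all genes, and Rtn4 itself did not pass in it (−3.03, adjusted p = 0.189). The share did not overlap between the genotypes, so the part of each cannot be told apart here.

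**Figure D5:**
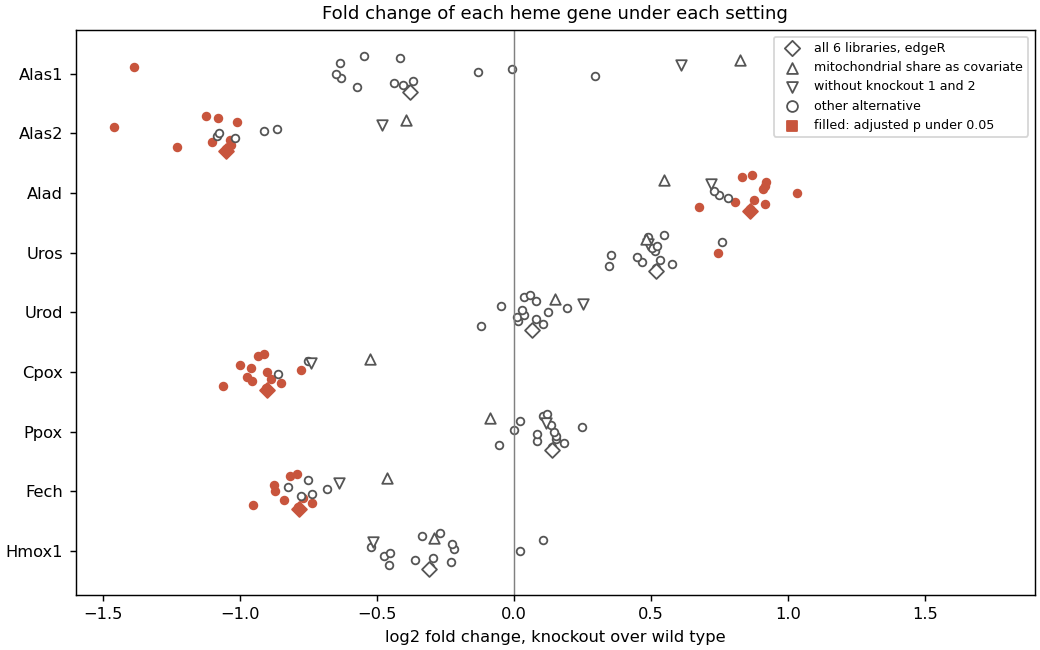
Log2 fold change of each heme gene (horizontal axis) under the main setting and 16 alternatives, the diamond being edgeR with all 6 libraries and filled symbols those with an adjusted p under 0.05. Alad, Alas2, Cpox and Fech keep their side of 0 throughout, while Alas1 runs from −1.39 to 0.83.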

How the data were processed

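RNA was extracted from liver with a Qiagen kit and sequenced from SMARTer mRNA libraries, per the labels' protocols. The authors deposited raw counts per gene, 1 column per library, with mm10 as the genome build according to the submitters' processing notes. For the aligner, the counting program, the annotation and strandedness, nothing is stated in the labels. Counts were fitted over all genes in R 4.3.3 with edgeR 4.0.16 (filterByExpr, TMM, quasi-likelihood F test, genotype as the only term). SE is the absolute log2 fold change over the square root of F, and 95% intervals use its degrees of freedom. Alternatives used limma 3.58.1 (voom), DESeq2 1.42.0, other scalings and filters, left-out libraries and covariates. Coordinates, exon lengths and shared 50-base words come from GENCODE M21, an annotation of the same build. CPM values are TMM-scaled, and single-gene likeness used log2(CPM + 0.5). The 95% intervals rest on the quasi-likelihood fit and so include the spread among libraries. Floors rest on counts alone, and the reads carry no molecular identifiers.

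The 9 genes and all lists were chosen with earlier results of these data known. The rule for named genes took the 9 genes, Rtn4, Hmox2, Blvra and Blvrb, then up to 4 called members of each list by smallest p (2 where none was called), and 5 genes most like Alas1 and Hmox1. Glrx5, Lonp1, Cat, Slc4a1, Gata1, Tfrc, Apex2, B4galt3 and Bccip were named outside it. In simulated counts over 13304 genes for this comparison the test recovered 43.0% of 100 genes changed 2-fold and 91.0% of 100 changed 4-fold, with 2 false calls among 136. The simulation gave both genotypes the same spread and changed far fewer genes than the 2268 called in the data. The adjusted p depends on the share of genes changed, so these rates need not hold for the measured libraries. Libraries differed by 21.0 to 43.3 chi-square per degree of freedom within wild type and 65.2 to 171 within knockout, so none was merged with another. Nothing beyond the sample labels says that each is 1 mouse, and p-values cover only the spread among these 6 samples. 1 gene covered by the rule is not reported here. Ahsp matched no row of the table, and Atp5if1 was matched as Atpif1 by its RefSeq synonym.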

Additional observations from a re-analysis of the deposited data

How the results depend on the processing

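Scaling by library totals moved the median of all tested genes to −0.16 and gave 690 genes higher and 1566 lower, against 1165 and 1103 with TMM, so 30.6% rather than 51.4% of the calls were higher. It also turned Urod to −0.12 and Ppox to −0.055. With no low-count filter 1 accessory gene was called higher and 1832 genes lower over all. Leaving out each library in turn, the heme genes called higher were 0 to 2 and lower 0 to 4, the accessory genes higher 0 to 1 and lower 3 to 9, and all genes higher 300 to 1885 and lower 330 to 2161. In these fits 4 genes changed sign. Alas1 ran from −1.39 to 0.29 (without wild type 4), Hmox1 from −0.52 to 0.022 (without wild type 11), Ppox from −3.2e-05 (without knockout 1) to 0.25 and Urod from −0.047 (without knockout 4) to 0.19. Without knockout 1 and 2 together, where knockout 4 alone is assumed to vary like wild type, edgeR called 0 heme genes higher and 0 lower (1 and 3 at an unadjusted p under 0.05), 0 accessory genes lower, 16 genes higher and 9 lower over all, and Alas1 was 0.61. The fit that adds the mitochondrial share gave 0 and 0 for heme genes, 0 for accessory genes lower, and 0 and 0 over all genes (1146 at an unadjusted p under 0.05), with Alas1 at 0.83 and Ppox at −0.088. The cause of these shifts was not tested. The replicate block adds a term for each library number. Number 11 occurs only in wild type and number 1 only in knockout. The genotype change in that fit therefore rests on wild type 2 and 4 against knockout 2 and 4. That fit called 1 heme gene higher and 1 lower, 1 accessory gene higher and 771 genes higher over all, and turned Hmox1 to 0.11. Cpox and Fech missed the threshold under it (−0.75 and −0.75, adjusted p = 0.0524 and 0.0555). Numbers 2 and 4 occur in both genotypes, but the deviations of same-numbered libraries correlated at −0.05 and 0.06, so they were not treated as pairs. Whether same-numbered mice share a litter is not stated, and the SE of Alas1 went from 0.57 to 0.31 with the block (−0.63, adjusted p = 0.180). DESeq2, limma-voom, RLE size factors, library totals without mitochondrial genes and a filter of 1 CPM in 3 libraries called the same 4 heme genes.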

Other observations

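Antioxidant targets of the factor NRF2, which also acts on Hmox1, showed no call in knockout liver under the main setting. Of 14 listed genes other than Hmox1, 13 were tested, and edgeR called 0 higher and 0 lower (1 and 1 at an unadjusted p under 0.05, and 0 and 0 by DESeq2), with a median of 0.01. The smallest p-values were those of Txnrd1, a thioredoxin reductase, at 127 ± 4.01 CPM in wild type and 89.9 ± 15.4 CPM in knockout (SD, n = 3 each; −0.50, edgeR adjusted p = 0.0822), and of Gsta1, a glutathione transferase (1.04, adjusted p = 0.110). Of the 16 alternatives, 3 called Gsta1 higher and 1 called Txnrd1 lower. The level of Gsta1 is uncertain, since 90.5% of its words are shared with related genes.

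Some markers of other liver cells moved with genotype beside the heme genes. Of all tested genes 8.76% were called higher and 8.29% lower. Of 8 sinusoidal endothelial markers, 5 fell and 0 rose, with Oit3, Lyve1, Kdr and Clec4g at −1.45, −1.69, −0.92 and −0.81, of which Kdr missed the threshold without wild type 2 or knockout 2 and Clec4g when either wild type 2, wild type 11 or knockout 2 was absent, and their summed level was 195 to 254 CPM in wild type and 111 to 184 CPM in knockout. Of the T and NK cell markers 4 were tested, and Ccl5, Trbc2 and Nkg7 were called higher, the 8 listed genes summing to 3.23 to 4.27 CPM in wild type and 8.12 to 17.8 CPM in knockout. Of 7 neutrophil markers only S100a8 and S100a9 passed the filter on low counts, and both rose. The 7 genes summed to 1.47 to 2.03 CPM in wild type and 4.21 to 10.4 CPM in knockout. The filter keeps a gene that has enough counts in the libraries of 1 genotype alone. Markers as low as those of T and NK cells and neutrophils could thus enter through knockout only, which favours rises among those tested. The shares of these 2 lists that rose are therefore not comparable with that of all tested genes. Trbc2 missed the threshold without wild type 4, Nkg7 without wild type 2, 4 or 11 or knockout 2, and S100a9 when either wild type 2, wild type 4 or knockout 2 was absent. Stellate cell markers gave no call (0 of 7 with edgeR, 0 higher and 1 lower at an unadjusted p under 0.05, and 1 lower by DESeq2). Hgf (−1.12, adjusted p = 0.0517) and Ngfr (−0.86, adjusted p = 0.214) had the smallest p-values among them. The part of these cells in the levels of the heme genes was not tested.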
